A study of Mus musculus with 18 samples.

Results

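The genes described here are the transcription factor gene Nfe2l2 (NRF2) and 9 genes of antioxidant enzymes: Gclc, Gclm, Txnrd1, Srxn1, Sod2, Sod3, Cat, Gpx1 and Gpx3. They were taken by name, in a choice made with earlier results of these data known, and each symbol matched 1 Ensembl gene, which gave 10 of the 30583 genes in the count table. RNA was sequenced from the left ventricle of 18 male C57BL/6JR mice aged 12 weeks, 3 mice and 3 libraries in each of 6 groups. In 5 groups the left anterior descending coronary artery was tied to cause a myocardial infarction (MI), and the mice were killed 10 min or 1, 6, 24 or 72 h later. In the sham group, which stands for 0 h, the suture was passed and left untied. All mice were under pentobarbital and none is described as carrying a transgene or a drug treatment, so every group shared the anaesthesia and the operation up to the tie. The series holds no sham group at the later times. Time since the operation and time since the tie therefore cannot be told apart. By its title the study asked how gene expression changes as an infarction progresses.

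NRF2 is a basic leucine zipper factor that is bound by KEAP1 and degraded in unstressed cells. When oxidants or electrophiles modify KEAP1, NRF2 accumulates, pairs with small MAF proteins and binds antioxidant response elements near genes for glutathione synthesis, the thioredoxin system and detoxification. The superoxide dismutases turn superoxide into hydrogen peroxide, and catalase and the glutathione peroxidases remove it, which matters in a muscle as rich in mitochondria as the heart. Because NRF2 activity is set largely by the stability of the protein, the level of Nfe2l2 mRNA measured here is not a measure of it.

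Libraries held 18.2 to 25.1 M (mega) counts, and levels are given as CPM (counts per M counts) after scaling of the libraries by the TMM method. Although the labels give cardiomyocytes as the cell type, they describe no separation of cells, and markers of other cells were present in each group. The summed level of 10 cardiomyocyte markers was 83638 to 89592 CPM in sham, 37783 to 57983 at 24 h and 20859 to 28037 at 72 h. Macrophage markers (10 genes) summed to 377 to 439 CPM in sham and 4141 to 5385 at 72 h, and fibroblast markers (10 genes) to 847 to 955 and 12539 to 16162. Neutrophil markers (10 genes) summed to between 3.15 and 4.67 CPM in sham, with Ly6g at 0, and ranged from 108 up to 777 CPM at 6 h, from 44.1 up to 758 CPM at 24 h, and from 65.7 up to 80.8 CPM at 72 h. Endothelial (10 genes), red blood cell (7) and adipocyte (6) sums were lower at 72 h than in sham without overlap, at 970 to 1246, 229 to 346 and 344 to 405 CPM against 1752 to 1863, 535 to 795 and 655 to 703. Smooth muscle and pericyte markers (8) went from 1377 to 1407 CPM down to 830 to 978, and atrial markers (5) from 124 to 246 up to 586 to 658. These last sums hide genes that moved both ways at 72 h by the test given below. Of the smooth muscle and pericyte markers 3 were higher and 4 lower, and of the atrial markers 1 was higher and 1 lower. Only 1 adipocyte marker passed the filter on low counts, and it was lower. Mitochondrially encoded genes took 17.7% to 27.4% of counts up to 24 h and 8.41% to 10.5% at 72 h. In tissue of mixed cells, fewer cells of a type and less RNA per cell cannot be told apart.

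Promoters were read because NRF2 acts through a known element, and because the 10 genes include Nfe2l2 itself and the classical NRF2 targets Gclc, Gclm, Txnrd1 and Srxn1. RefSeq promoter windows (GRCm38.p6, 250 bases before to 50 after a transcript's start) were at hand for 8 of the 10 genes, 10 windows in all, and not for Gclc and Sod3. They were searched on both strands for TGACNNNGC, the core of the antioxidant response element, where N is any base. A match lay in a window of 4 genes, Nfe2l2, Gclm, Txnrd1 and Srxn1, and in none of the windows of Sod2, Cat, Gpx1 and Gpx3. That is 4 of 8 genes, beside 13.99% of the 27025 genes with a window (12.4% of 32851 windows). Because the list was chosen by name and holds known NRF2 targets, this share describes the list and is not a test. All 4 genes with a match were called higher at 6 h, where 16.3% of all genes were. Of those searched and without one, Gpx1 and Gpx3 were also called higher at 6 h, and Sod2 and Cat were not called. Gclc and Sod3 were called higher too, but without a window they cannot be placed on either side. Whether a match goes with a rise was not tested. The matches are printed 5′ to 3′ on the gene's strand, with the match in capitals, to show the letters found.
Nfe2l2: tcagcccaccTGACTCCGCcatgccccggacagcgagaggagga
Gclm: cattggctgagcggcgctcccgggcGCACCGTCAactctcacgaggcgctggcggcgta
Txnrd1: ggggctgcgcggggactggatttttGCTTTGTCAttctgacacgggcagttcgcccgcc
Srxn1: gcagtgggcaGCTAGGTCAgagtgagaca
The Nfe2l2 stretch is chr2:75704870-75704913 on the minus strand, and its match begins 240 bases before the start and reads TGACNNNGC along the gene. The Gclm stretch is chr3:122245398-122245456, plus strand, with the match beginning 134 bases before the start. The Txnrd1 stretch is chr10:82859089-82859147, plus strand, with the match beginning 92 bases before the start of 1 of its 3 windows, and the other 2 had none. The Srxn1 stretch is chr2:152105542-152105570, plus strand, and its match begins at base 29 of the transcript. In these last 3 genes the element lies on the opposite strand, so the capitals read GCNNNGTCA. A match of letters does not show that NRF2 binds there, and a window without one says nothing of elements elsewhere.

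No difference from sham was detectable at 10 min or 1 h, and the genes moved from 6 h on. A gene was called when its adjusted p was under 0.05 (edgeR quasi-likelihood test, Benjamini-Hochberg over 16311 genes). All 10 genes passed the filter on low counts. At 10 min 0 of the 10 were called, against 0.0736% of all genes (12), and at 1 h 0 of 10, against 0.294% of all genes (48). At an unadjusted p under 0.05 there were 1 of 10 at 10 min, Sod3, and 0 of 10 at 1 h, beside 1144 and 899 of all genes. DESeq2 also called 0 of the 10 at both times. Between 10 min and 1 h 0 of 10 were called, with 0.307% of all genes and 1 of the 10, again Sod3, at an unadjusted p under 0.05.

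By 6 h 8 of the 10 genes had risen and 0 had fallen, where 16.3% of all genes were called higher and 12.2% lower. The 8 were Nfe2l2, Gclc, Gclm, Txnrd1, Srxn1, Sod3, Gpx1 and Gpx3. The median log2 fold change of the 10 was 0.51, beside -0.01 over all genes. At 24 h 7 of 10 were higher and 2 lower, with 23.7% and 20.2% of all genes, and the median was 0.46 beside 0.01. At 72 h 6 were higher and 2 lower, with 34.2% and 32.2% of all genes, and the median was 0.64 beside 0.03. These comparisons share the 3 sham libraries. In the F test over all 6 groups each of the 10 passed, where 78.4% of all genes did, so that count does not set the 10 apart.

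Between neighbouring times, the step from 1 h to 6 h called 8 of the 10, all higher, with 24.5% of all genes called in either direction. From 6 h to 24 h 4 of 10 were called, with 27.8% of all genes: Gpx1 rose and Nfe2l2, Sod2 and Cat fell. From 24 h to 72 h 6 of 10 were called, with 50.5% of all genes: Sod3, Gpx1 and Gpx3 rose, while Srxn1, Sod2 and Cat fell. With library totals in place of TMM, 5 of these steps were not called: Sod3 and Gpx1 from 1 h to 6 h, Nfe2l2 (-0.02) and Cat from 6 h to 24 h, and Srxn1 from 24 h to 72 h. On that scale the all-gene median was -0.12 at 6 h but 0.20 at 24 h and reached 0.61 at 72 h, so a change at 72 h is relative to the other genes rather than to the library total. Then 40.6%, 75.5% and 79.9% of called genes were higher at 6, 24 and 72 h, in place of 57.2%, 54% and 51.4%. The counts of the 10 genes were 6 higher and 0 lower at 6 h, 8 and 1 at 24 h, and 8 and 2 at 72 h. The split at 72 h was thus near that of all called genes. The direction of no called gene turned.

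**Figure D1:**
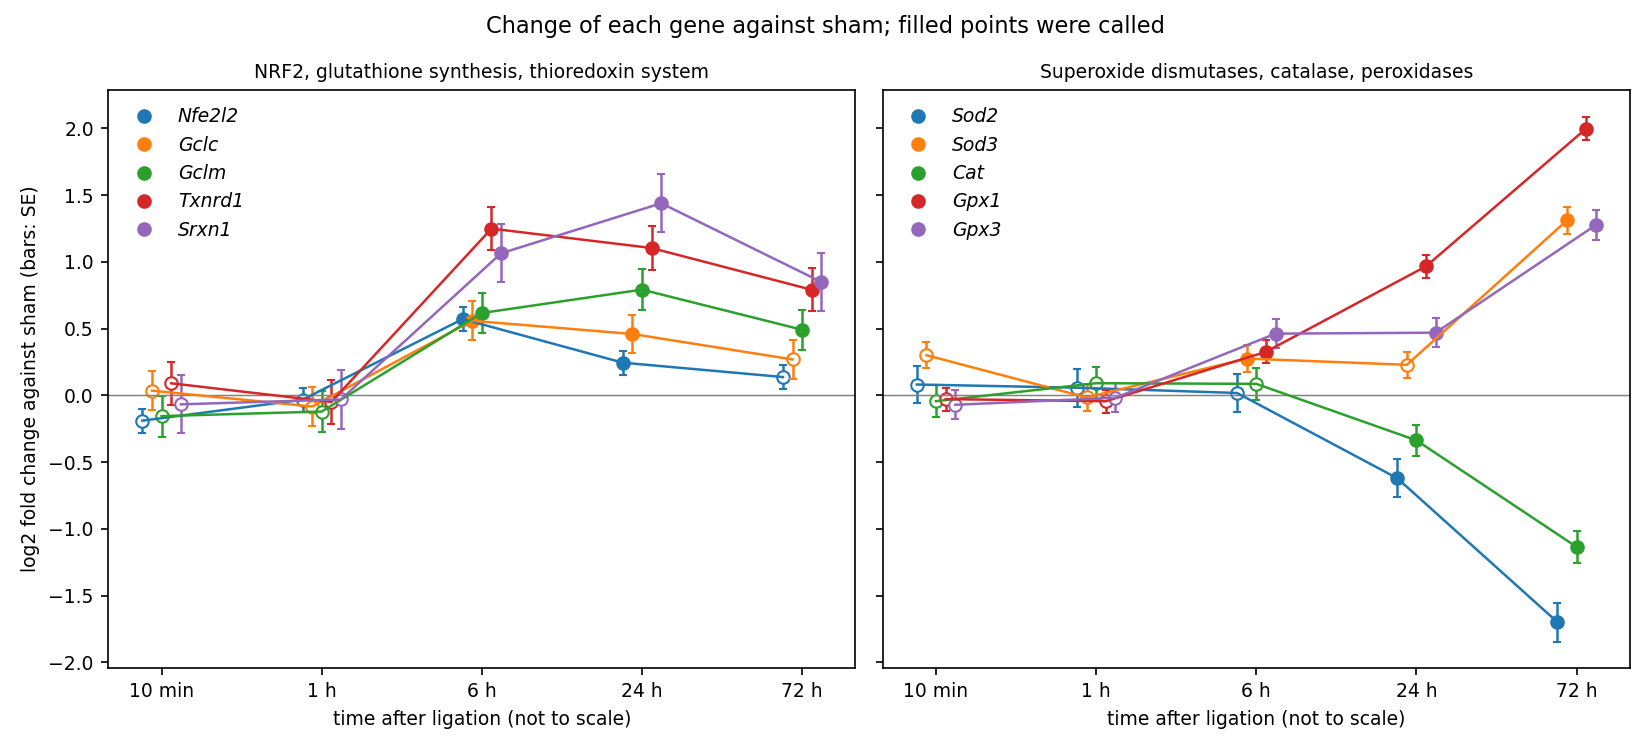
Log2 fold change against sham (y axis, bars are SE) of the 10 genes at 5 times after ligation (x axis, not to scale), NRF2, glutathione and thioredoxin genes on the left and dismutases, catalase and peroxidases on the right. Filled points were called at an adjusted p under 0.05 and open points were not: the genes on the left are highest at 6 h or 24 h on this TMM scale (with library totals Nfe2l2, Gclc, Gclm and Txnrd1 were highest at 72 h, at 0.72, 0.85, 1.08 and 1.38), whereas those on the right diverge up to 72 h, from 2.0 for Gpx1 to -1.70 for Sod2.

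Nfe2l2 (ENSMUSG00000015839, chr2:75675513-75704641, minus strand) was highest at 6 h relative to other genes and overlapped sham at 72 h, an order that library totals change. Gene positions here are those of GENCODE M21 on GRCm38, the mm10 build. Its level was 55.6, 54.9 and 64.4 CPM in the sham libraries and 96.7, 85.0 and 78.2 CPM at 6 h. The 6 h libraries all lay above the sham libraries, and replicate 1 was the highest. The mean rose from 58.3 ± 5.31 to 86.6 ± 9.38 CPM (SD, n = 3), a log2 fold change of 0.57 ± 0.09 (SE, derived from the F statistic), or 1.49-fold (edgeR adjusted p = 0.000186). At 24 h it stood at 66.5, 66.2 and 74.5 CPM, still above all sham libraries, with a log2 fold change of 0.24 (adjusted p = 0.0354). At 72 h the values of 62.2, 65.2 and 64.9 CPM overlapped sham and the difference of 0.14 was not called (adjusted p = 0.189). The step down from 6 h to 24 h was called at -0.33 ± 0.09 (adjusted p = 0.0115).

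The early libraries held 52.1, 52.3 and 48.9 CPM of Nfe2l2 at 10 min and 58.6, 58.3 and 54.0 CPM at 1 h. Those at 10 min lay below each sham library, but the difference of -0.19 did not pass (adjusted p = 0.712). The 6 h call held without any 1 library, whereas the 24 h call was lost without sham replicate 1 or 2 or without 24 h replicate 1 or 3, with log2 fold changes down to 0.19. The fall from 6 h to 24 h was lost without 6 h replicate 1 (-0.24, adjusted p = 0.0625) and with library totals, on which scale 72 h was the highest time and its difference reached 0.72 (adjusted p = 2.49e-06) beside the shift of 0.61 in all genes.

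Gclc (ENSMUSG00000032350, chr9:77754535-77794485, plus strand) and Gclm (ENSMUSG00000028124, chr3:122245557-122270732, plus strand) encode the catalytic and the modifier subunit of glutamate-cysteine ligase, the rate-limiting enzyme of glutathione synthesis. Both rose at 6 h and 24 h, and Gclm also at 72 h. Gclc measured 13.7, 15.1 and 14.9 CPM in sham (between 12.3 and 16.3 at 10 min and 1 h) and 23.6, 21.0 and 19.8 CPM at 6 h, without overlap, and changed by 0.56 ± 0.14 (adjusted p = 0.00775). At 24 h it measured 16.8, 17.5 and 25.9 CPM, again above sham, with replicate 3 apart from the other 2 (0.46, adjusted p = 0.015). At 72 h the libraries still lay above sham at 16.0, 19.5 and 17.2 CPM, but the difference of 0.27 was not called (adjusted p = 0.106). The 24 h change was 0.24 without replicate 3 and no longer called (adjusted p = 0.139). It was also lost without sham replicate 1, at 0.42. With library totals Gclc was called at 72 h (0.85, adjusted p = 3.59e-05).

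Gclm measured 23.8, 22.5 and 21.3 CPM in sham (between 17.8 and 21.9 at 10 min and 1 h), 34.8, 36.5 and 32.4 CPM at 6 h and 37.2, 29.8 and 50.3 CPM at 24 h. All 6 of these later libraries exceeded sham, and 24 h replicate 3 was the highest. The log2 fold changes were 0.62 ± 0.15 at 6 h (adjusted p = 0.00577) and 0.79 ± 0.15 at 24 h (adjusted p = 0.000502). At 72 h, with 27.2, 31.1 and 36.8 CPM, Gclm remained higher by 0.49 (adjusted p = 0.00802), a call lost without 72 h replicate 3 (0.37, adjusted p = 0.0558). Per unit of gene length, the ratio of Gclm to Gclc counts was 0.929 ± 0.0976 in sham and 1.17 ± 0.152 at 24 h, and its ranges overlapped (0.858 to 1.04 and 1.02 to 1.32). The exons of Gclm share 296 bases with Gm17494 on the opposite strand, a gene with 114 counts over all 18 libraries. They also share 244 bases with Gm6061 on the same strand, a pseudogene that the count table does not hold.

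Txnrd1 (ENSMUSG00000020250, chr10:82833951-82897712, plus strand), the cytosolic thioredoxin reductase, and Srxn1 (ENSMUSG00000032802, chr2:152105516-152111376, plus strand), the sulfiredoxin that repairs overoxidized peroxiredoxins, rose more than the glutathione synthesis genes by point estimate; that difference was not tested. Txnrd1 measured 52.9, 51.2 and 52.1 CPM in sham and 154, 116 and 101 CPM at 6 h. No 6 h library was near sham, and the mean went from 52.1 ± 0.848 to 124 ± 27.1 CPM, a log2 fold change of 1.25 ± 0.16, or 2.38-fold (adjusted p = 3.79e-05). Levels were 105, 87.9 and 143 CPM at 24 h and 79.1, 100.2 and 90.7 CPM at 72 h. All remained above sham, with changes of 1.10 (adjusted p = 5.57e-05) and 0.79 (adjusted p = 0.000302). The 6 libraries of 10 min and 1 h spanned 47.2 to 62.5 CPM.

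Srxn1 measured 23.0, 24.7 and 21.2 CPM in sham (with 21.9 ± 2.58 CPM at 10 min and 22.5 ± 2.72 at 1 h), 57.5, 42.2 and 44.4 CPM at 6 h, 55.0, 41.0 and 91.2 CPM at 24 h and 37.2, 43.1 and 43.8 CPM at 72 h. From 6 h on each library exceeded each sham library, and 24 h replicate 3 stood far above the others of its group. The change was 1.06 ± 0.22 at 6 h (adjusted p = 0.00186), 1.44 ± 0.22 at 24 h, or 2.71-fold (adjusted p = 9.96e-05), and 0.85 ± 0.21 at 72 h (adjusted p = 0.0023). The change of -0.59 from 24 h to 72 h (adjusted p = 0.027) did not hold in several alternatives. Without 24 h replicate 3 it was -0.21 (adjusted p = 0.235), and with library totals -0.19 (adjusted p = 0.442). The call was also lost without 72 h replicate 1 or 2, with no filter on low counts, with limma on FPKM and in those 6 libraries alone. The rise at 24 h was 1.06 without 24 h replicate 3 and was still called.

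Replicates differed in cell markers as well as in these genes. At 24 h, replicate 3 had the highest Gclc, Gclm, Txnrd1 and Srxn1, the highest neutrophil marker sum (758 CPM, against 178 and 44.1 in replicates 1 and 2) and the lowest cardiomyocyte marker sum (37783 CPM, against 57983 and 53696). The same library also had the highest Nfe2l2, Sod3, Gpx1 and Gpx3 and the lowest Sod2 and Cat of its group. At 6 h, replicate 1 had the highest Nfe2l2, Gclc, Txnrd1 and Srxn1 and the highest neutrophil sum (777 CPM, against 278 and 108), with a cardiomyocyte sum of 74578 CPM, the lowest of its group. Gclm, however, was highest in 6 h replicate 2 (36.5 CPM, against 34.8 in replicate 1), and Srxn1 was lower in replicate 2 than in replicate 3 (42.2 and 44.4 CPM). Macrophage and endothelial sums were also the highest of their groups in both of these libraries. They were 947 and 1538 CPM in 24 h replicate 3, and 628 and 2380 CPM in 6 h replicate 1. The part of any of these cell types in the rise was not tested across libraries. In 24 h replicate 2, which had the lowest neutrophil sum of its group (44.1 CPM, still above the 3.15 to 4.67 CPM of sham), Srxn1 stood at 41.0 CPM, Txnrd1 at 87.9 CPM, Gclm at 29.8 CPM and Gclc at 17.5 CPM, each above the highest sham library (24.7, 52.9, 23.8 and 15.1 CPM). Of the 8 neutrophil markers that passed the filter on low counts, 8 were higher at 6 h, 7 at 24 h and 6 at 72 h.

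**Figure D2:**
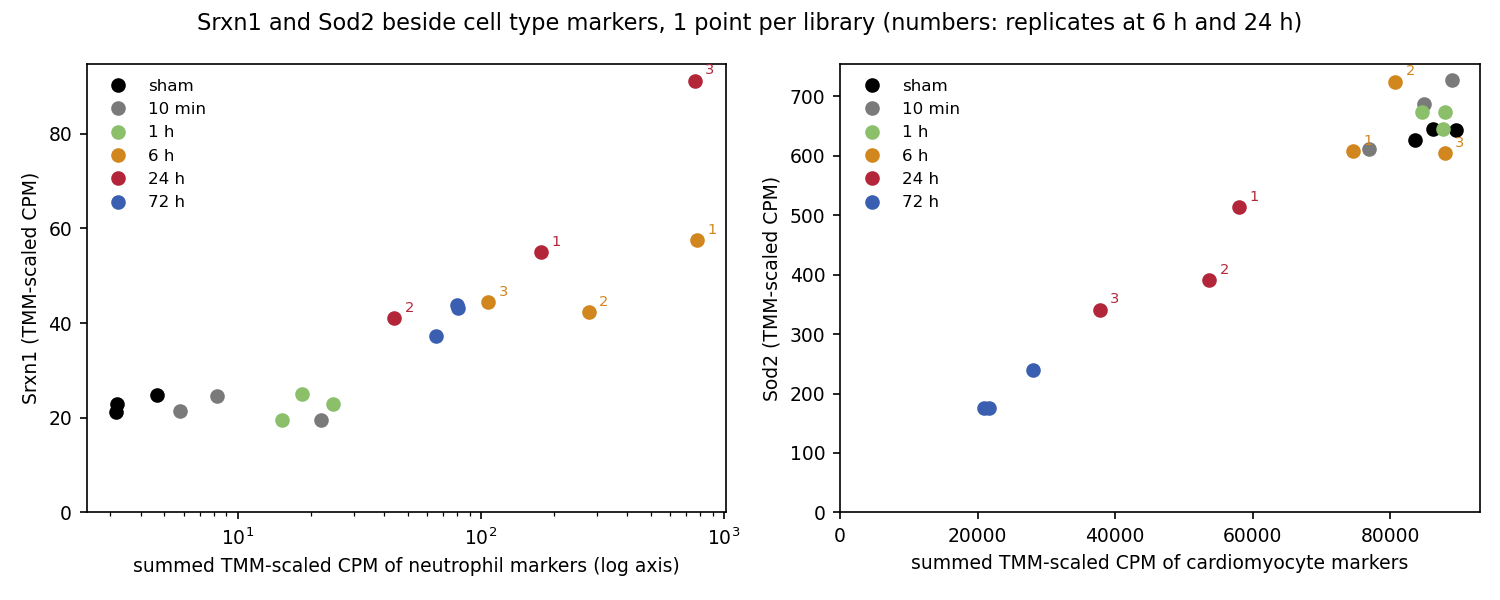
Srxn1 against the summed level of 10 neutrophil markers (left, log x axis) and Sod2 against that of 10 cardiomyocyte markers (right), both in TMM-scaled CPM, 1 point per library coloured by group, with replicate numbers at 6 h and 24 h. Srxn1 is highest in 24 h replicate 3, which also has a high neutrophil sum (758 CPM), and Sod2 is lowest in the 72 h libraries, which have the lowest cardiomyocyte sums (20859 to 28037 CPM).

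Sod2 (ENSMUSG00000006818, chr17:13006846-13040063, plus strand), the manganese superoxide dismutase of the mitochondrial matrix, was not called up to 6 h and fell at each step after it. It measured 643, 645 and 626 CPM in sham (between 611 and 727 at 10 min and 1 h) and 608, 725 and 605 CPM at 6 h. These groups overlapped, and the difference of 0.02 ± 0.14 was not called (adjusted p = 0.946). At 24 h it measured 513, 390.2 and 341 CPM, below each sham library, a change of -0.62 ± 0.14 (adjusted p = 0.00203). At 72 h it measured 239, 175 and 175 CPM and had fallen by 1.70 on the log2 scale, to 0.308 of the sham level (SE 0.15, adjusted p = 1.27e-08). Cardiomyocyte markers moved with it: 8 of 10 were lower at 24 h and 10 of 10 at 72 h, with a median log2 fold change of -0.75 at 24 h and -2.07 at 72 h. Their part in the fall was not tested.

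Sod3 (ENSMUSG00000072941, chr5:52363791-52371418, plus strand), the secreted dismutase of the extracellular matrix, rose chiefly by 72 h. It measured 37.9, 31.2 and 37.4 CPM in sham, 38.4, 38.6 and 47.9 CPM at 24 h and 89.3, 92.1 and 82.9 CPM at 72 h. Libraries of 24 h and 72 h all lay above sham, and those of 72 h by far, at 2.48-fold (1.31 ± 0.10, adjusted p = 2.9e-09). At 6 h, with 41.8, 42.7 and 44.5 CPM, the change of 0.27 was just called (adjusted p = 0.0461) and was lost without any 1 of the 6 libraries and in the fit with a replicate block. At 24 h the change of 0.23 was not called (adjusted p = 0.0701), although it was with library totals (0.42, adjusted p = 0.00428). The 10 min libraries held 45.3, 44.1 and 41.9 CPM, all above sham and above the 34.6, 37.9 and 32.9 CPM of 1 h, yet the difference from sham of 0.30 did not pass (adjusted p = 0.474). At 72 h 10 of 10 fibroblast markers were higher, with a median log2 fold change of 2.69, as were 10 of 10 macrophage markers (3.16). The part of either cell type in the rise of Sod3 was not tested. Per unit of gene length, the ratio of Sod2 to Sod3 counts was 17.7 ± 2.15 in sham and 2.18 ± 0.393 at 72 h, without overlap (16.4 to 20.2 and 1.86 to 2.62). These ratios use the 3824 bases behind the FPKM of Sod2. With the 10008 bases that its exons cover in GENCODE M21 they were 6.77 ± 0.820 and 0.834 ± 0.150, so which of the 2 is higher at 72 h depends on the length.

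Cat (ENSMUSG00000027187, chr2:103453849-103485160, minus strand), the peroxisomal catalase, was not called before 24 h and was lower at 24 h and 72 h. It measured 177, 171 and 160.1 CPM in sham (between 151 and 182 at 10 min and 1 h), 171, 174 and 194 CPM at 6 h, 167, 123 and 113 CPM at 24 h and 79.2, 70.1 and 81.9 CPM at 72 h. At 6 h it was not called (0.09, adjusted p = 0.631), and at 24 h replicate 1 lay within the sham range while replicates 2 and 3 lay below it. The change was -0.34 ± 0.12 at 24 h (adjusted p = 0.0275) and -1.14 ± 0.12 at 72 h, to 0.455 of sham (adjusted p = 1.53e-07). The 24 h call was lost without sham replicate 1 or 2 or 24 h replicate 2 or 3, and with library totals (-0.15, adjusted p = 0.306). The step of -0.42 from 6 h to 24 h (adjusted p = 0.0127) was -0.13 with library totals and not called (adjusted p = 0.38). It was also lost with limma on FPKM, in those 6 libraries alone, and without 6 h replicate 3 or 24 h replicate 2 or 3. Leaving out 24 h replicate 1 gave, at 24 h against sham, -0.55. The 72 h fall held in each alternative, at -0.55 with library totals.

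Gpx1 (ENSMUSG00000063856, chr9:108338903-108340343, plus strand), the ubiquitous cytosolic glutathione peroxidase, rose at each step after 1 h and had the largest change of the 10. Its libraries read 67.2, 62.3 and 60.8 CPM in sham (between 57.6 and 64.3 at 10 min and 1 h), 78.3, 82.4 and 77.9 CPM at 6 h, 109, 129 and 134 CPM at 24 h and 252, 244 and 265 CPM at 72 h. No group from 6 h on overlapped sham or its neighbour in time. The log2 fold change was 0.33 ± 0.09 at 6 h (adjusted p = 0.00884), 0.97 ± 0.09 at 24 h (adjusted p = 4.99e-07) and 2.0 ± 0.09 at 72 h, or 4.0-fold (adjusted p = 5.43e-12). The 6 h call against sham was lost with library totals (0.22, adjusted p = 0.126). At 72 h 10 of 10 macrophage markers and 10 of 10 fibroblast markers were higher, with median log2 fold changes of 3.16 and 2.69. The part of either cell type in the rise of Gpx1 was not tested.

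Gpx3 (ENSMUSG00000018339, chr11:54902453-54910377, plus strand), the secreted plasma glutathione peroxidase, rose by 6 h and again by 72 h. It measured 181, 178 and 197 CPM in sham (between 164 and 190.0 at 10 min and 1 h), 281, 204 and 282 CPM at 6 h, 244, 256 and 269.6 CPM at 24 h and 440.3, 434 and 472 CPM at 72 h. At 6 h replicate 2 was just above sham and the other 2 were well above it. Log2 fold changes were 0.46 ± 0.11 at 6 h (adjusted p = 0.00426), 0.47 ± 0.11 at 24 h (adjusted p = 0.00221) and 1.28 ± 0.11 at 72 h (adjusted p = 1.35e-08). Between 6 h and 24 h the difference of 0.01 was not called (adjusted p = 0.969), and the step from 24 h to 72 h was 0.81 (adjusted p = 7.52e-06). The ratio of Gpx3 to Gpx1 per unit of gene length was 2.33 ± 0.226 in sham and 1.41 ± 0.0154 at 72 h, with ranges of 2.14 to 2.58 and 1.39 to 1.42.

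**Figure D3:**
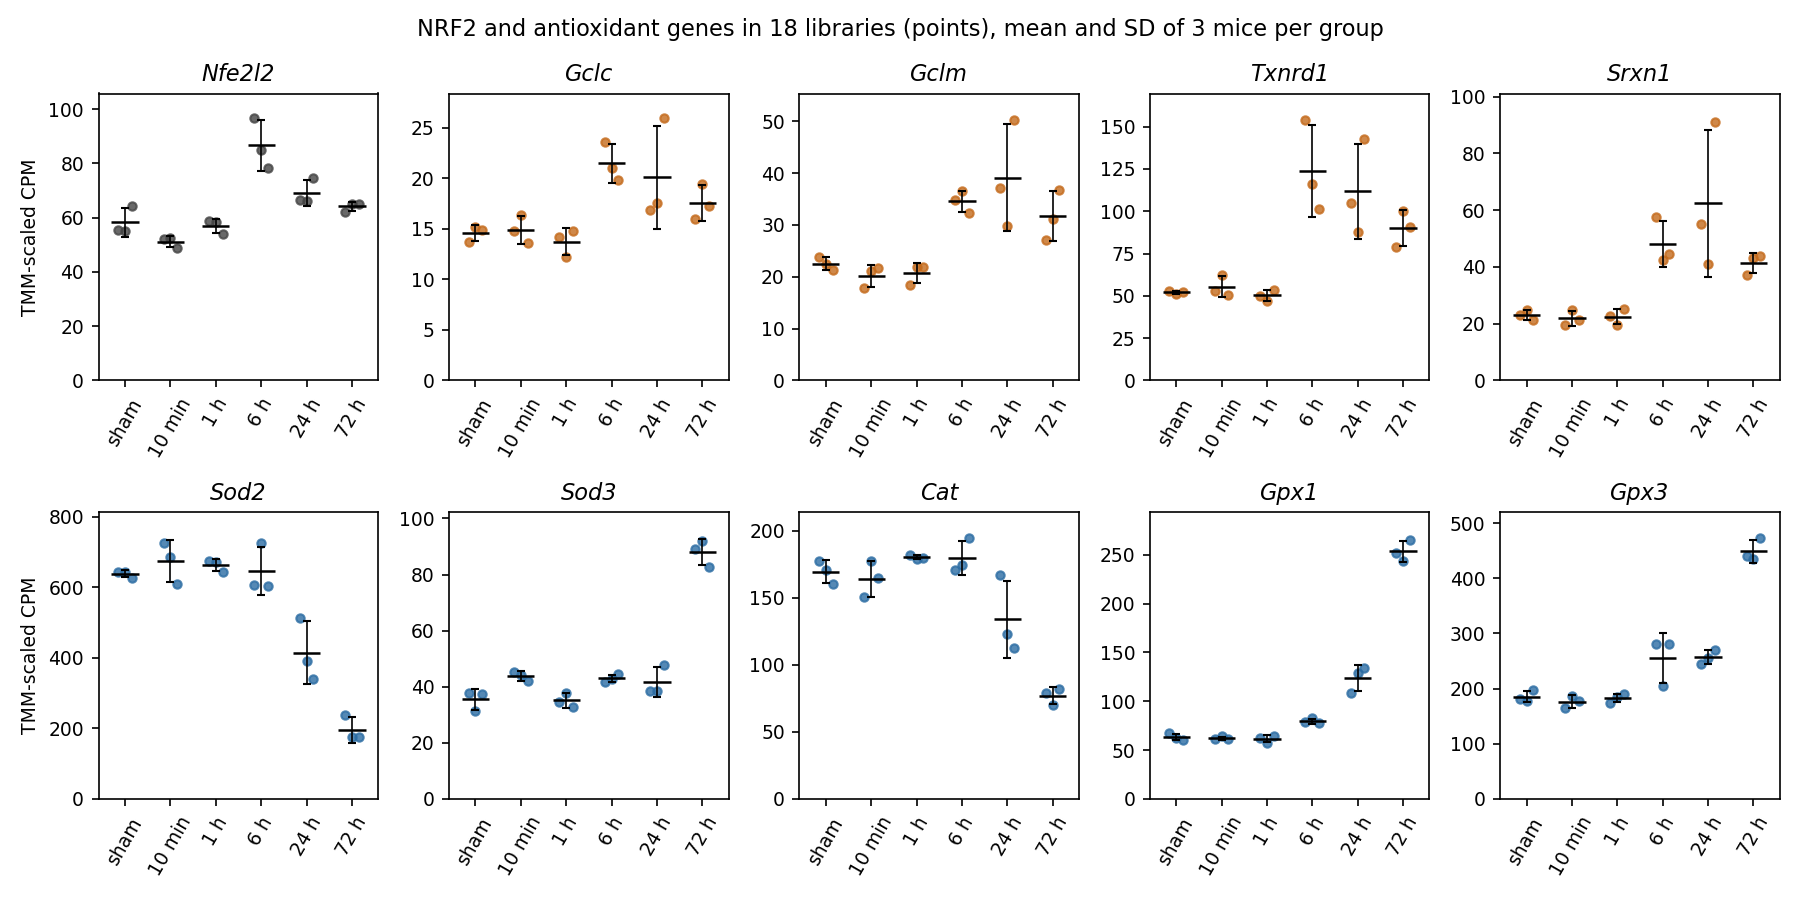
Level of each of the 10 genes in TMM-scaled CPM (y axis, from 0, a scale of its own in each panel) in the 18 libraries (points) by group (x axis), with the mean and SD of 3 mice. Nfe2l2 is highest at 6 h (mean 86.6 CPM), Srxn1 spreads widest at 24 h (41.0 to 91.2 CPM), and Sod2 and Cat fall while Gpx1, Gpx3 and Sod3 rise to 72 h.

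Between genes, levels can be compared only per gene length, for which the deposited FPKM (fragments per kilobase per M counts) were used. In sham the order was Sod2 (155 ± 2.06 FPKM), Gpx3 (94.9 ± 8.22), Cat (60.0 ± 1.86), Gpx1 (40.8 ± 1.77), Nfe2l2 (14.3 ± 1.74), Sod3 (8.82 ± 1.09), Srxn1 (7.54 ± 0.383), Txnrd1 (6.81 ± 0.248), Gclc (3.59 ± 0.233) and Gclm (3.32 ± 0.127). Neighbours overlapped in 2 places, Sod3 with Srxn1 and Gclc with Gclm. At 72 h the order began with Gpx3 (345 ± 24.7 FPKM) and Gpx1 (245 ± 16.1), ahead of Sod2 (71.3 ± 11.7), Cat (41.1 ± 3.86) and Sod3 (32.8 ± 1.25), none of which overlapped its neighbour. Nfe2l2 (23.5 ± 1.16), Srxn1 (20.4 ± 2.29) and Txnrd1 (17.7 ± 2.31) followed with overlapping ranges, and Gclm and Gclc were again lowest and overlapped. Gpx3 exceeded Sod2 in 3 of 3 libraries at 24 h. FPKM are scaled to the library total, so they serve here for the order within a group. The length behind the FPKM of Sod2 was 3824 bases, whereas its exons in GENCODE M21 cover 10008, and with that length Sod2 was at 59.1 ± 0.787 FPKM in sham, under Gpx3 and overlapping Cat, and at 27.3 ± 4.48 FPKM at 72 h, under Cat.

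**Figure D4:**
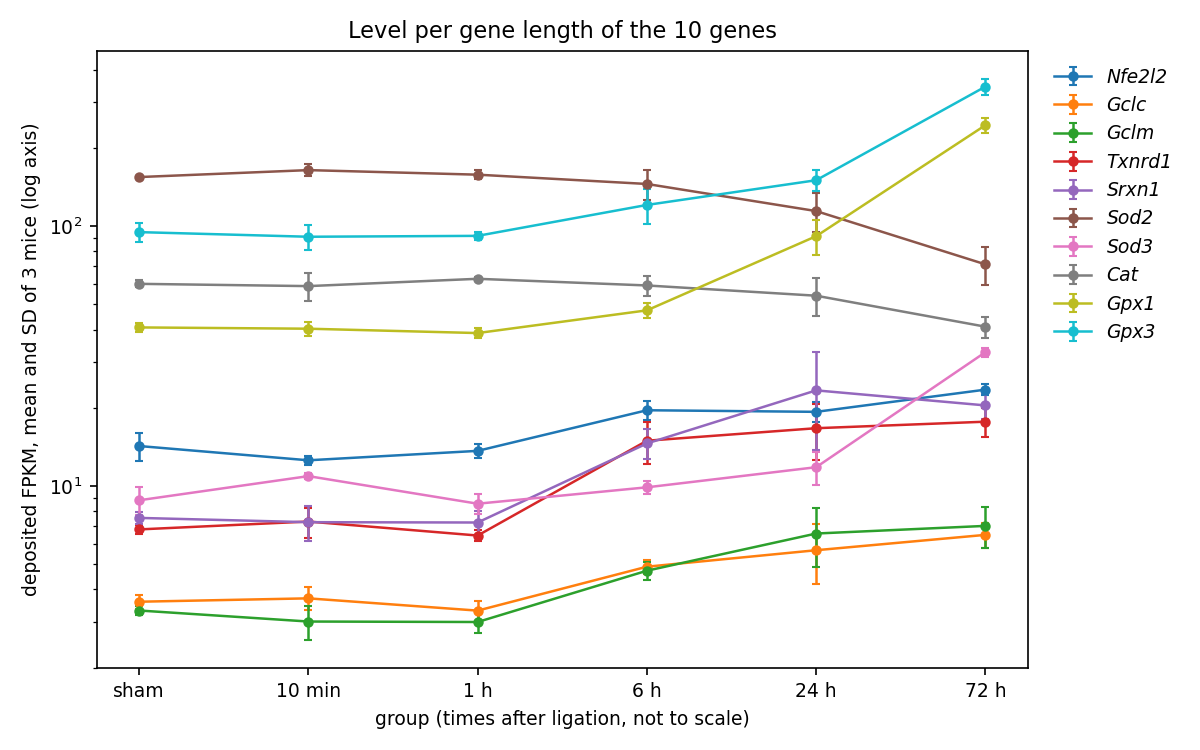
Deposited FPKM (log y axis, mean and SD of 3 mice) of the 10 genes in the 6 groups (x axis, times not to scale), as a level per gene length. With the length behind the deposited values Sod2 is highest up to 6 h, and Gpx3 and Gpx1 are the 2 highest at 72 h (345 and 245 FPKM).

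Among 14 genes that regulate or partner NRF2, 4 were higher, 1 lower and 9 not called at 6 h. Counts were 5, 2 and 7 at 24 h and 5, 5 and 4 at 72 h, with a median log2 fold change of -0.01 at 72 h (0.03 over all genes), and 0 were called at 10 min and 1 h. Of all genes 16.3% were higher and 12.2% lower at 6 h, 23.7% and 20.2% at 24 h, and 34.2% and 32.2% at 72 h, so the split of this list at 72 h was near that of all genes. With library totals the splits were 4 higher and 2 lower at 6 h, 8 and 0 at 24 h, and 9 and 2 at 72 h. Of all called genes 40.6%, 75.5% and 79.9% were then higher, so the split at 72 h was again near that of all genes. Maff and Mafk, small MAF partners of NRF2, rose at 6 h by 2.91 ± 0.31 (from 13.8 ± 1.69 to 104 ± 36.7 CPM, adjusted p = 1.59e-05) and 1.63 ± 0.18 (adjusted p = 1.07e-05). Trim21, a ubiquitin ligase, was lower at 6 h (-0.58 ± 0.14, adjusted p = 0.00357) but higher at 72 h (0.48 ± 0.13, adjusted p = 0.00309). At 72 h Dpp3, which competes for KEAP1, rose by 1.05 ± 0.09 (adjusted p = 1e-08), as did Bach1, a repressor at the same elements (0.85 ± 0.18, adjusted p = 0.000398). Nfe2l1, the NRF1 gene, and Cul3, the ligase scaffold that works with KEAP1, fell by 0.90 and 0.86 (adjusted p = 6.6e-07 and 2.35e-08). Keap1 itself was at 68.5 ± 2.24 CPM in sham and 66.3 ± 9.90 at 6 h, which was not called (adjusted p = 0.76). At 72 h Keap1 was lower (-0.45 ± 0.10, adjusted p = 0.000378), but with library totals its difference was 0.13 and not called.

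Of 28 other genes known as NRF2 targets, 9 were higher, 1 lower and 18 not called at 6 h. The counts were 13, 7 and 8 at 24 h and 15, 10 and 3 at 72 h, with a median of 0.63 at 72 h, and 0 were called before 6 h. Over all genes 16.3% were higher and 12.2% lower at 6 h, and 23.7% and 20.2% at 24 h. Beside the 34.2% and 32.2% of all genes at 72 h, the share of this list that was lower was near the background and the share that was higher exceeded it. With library totals they were 8 higher and 4 lower at 6 h, 15 and 4 at 24 h, and 18 and 8 at 72 h. Of all called genes 40.6%, 75.5% and 79.9% were then higher at these times. Hmox1, the inducible heme oxygenase, went from 5.23 ± 0.768 CPM in sham to 101 ± 18.4 at 6 h (4.27 ± 0.53, adjusted p = 9.78e-05), 119 ± 108 at 24 h and 339.7 ± 31.0 at 72 h (6.02 ± 0.57, adjusted p = 5.36e-07). Slc7a11, the cystine transporter that feeds glutathione synthesis, had at most 3 counts in a sham library and reached 7.80 ± 7.99 CPM at 6 h and 2.65 ± 0.745 CPM at 72 h, called at both times (adjusted p = 0.00887 and 0.0209). The 72 h call of Slc7a11 was lost without sham replicate 2 or 3. Both of its calls were lost with limma on log2(FPKM + 1) (adjusted p = 0.214 at 6 h and 0.31 at 72 h). Nqo1, the quinone reductase often read as an NRF2 marker, was not called higher at any time: it was 44.2 ± 3.80 CPM in sham and 35.2 ± 6.38 CPM at 6 h (-0.33, adjusted p = 0.0749), and fell to 19.7 ± 2.04 CPM at 72 h (-1.17 ± 0.14, adjusted p = 5.37e-07). With library totals the lower level of Nqo1 at 6 h was also called. Ephx1, an epoxide hydrolase, was lower at 6 h (-0.90 ± 0.19, adjusted p = 0.00183), and the glutathione transferases Gsta3 (-1.96 ± 0.43, adjusted p = 0.00097) and Gstm1 (-1.91 ± 0.15, adjusted p = 3.94e-09) at 72 h.

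A further 31 genes of the glutathione, peroxiredoxin, thioredoxin and dismutase systems were mostly lower by 72 h. At 6 h 4 were higher, 1 lower and 26 not called, beside 16.3% higher and 12.2% lower of all genes. The higher share of this list was thus not above that of all genes at 6 h. At 24 h the counts were 6, 15 and 10, beside 23.7% and 20.2% of all genes. At 72 h they were 6, 20 and 5, with a median log2 fold change of -0.75, where 34.2% of all genes were higher and 32.2% lower. With library totals they were 3 higher and 3 lower at 6 h, 7 and 5 at 24 h and 12 and 12 at 72 h. Falls thus did not outnumber rises on that scale. Of all called genes, however, 75.5% were then higher at 24 h and 79.9% at 72 h. Falls therefore still took a larger share of the calls in this list than of all calls at both times. Txnip, the thioredoxin inhibitor, was the 1 gene of the 3 lists called before 6 h: it rose by 1.06 ± 0.22 at 1 h (adjusted p = 0.0462) and by 1.33 ± 0.22 at 6 h (adjusted p = 0.000303). By 72 h Txnip was lower than sham on the TMM scale (-0.71 ± 0.21, adjusted p = 0.00754). Sesn2, a stress-induced sestrin, rose at 6 h (1.58 ± 0.31, adjusted p = 0.00116), while Ggct, an enzyme of the gamma-glutamyl cycle, was lower (-0.52 ± 0.11, adjusted p = 0.00144). At 72 h Gpx7 and Prdx4, which are peroxidases of the endoplasmic reticulum, rose by 3.03 ± 0.12 and 1.84 ± 0.12 (adjusted p = 2.55e-12 and 4.32e-10). Mgst3, a membrane-bound glutathione transferase, and Msrb2, a mitochondrial methionine sulfoxide reductase, were lower (log2 fold changes of -1.83 and -1.73, adjusted p = 5.61e-08 and 7.49e-09).

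**Figure D5:**
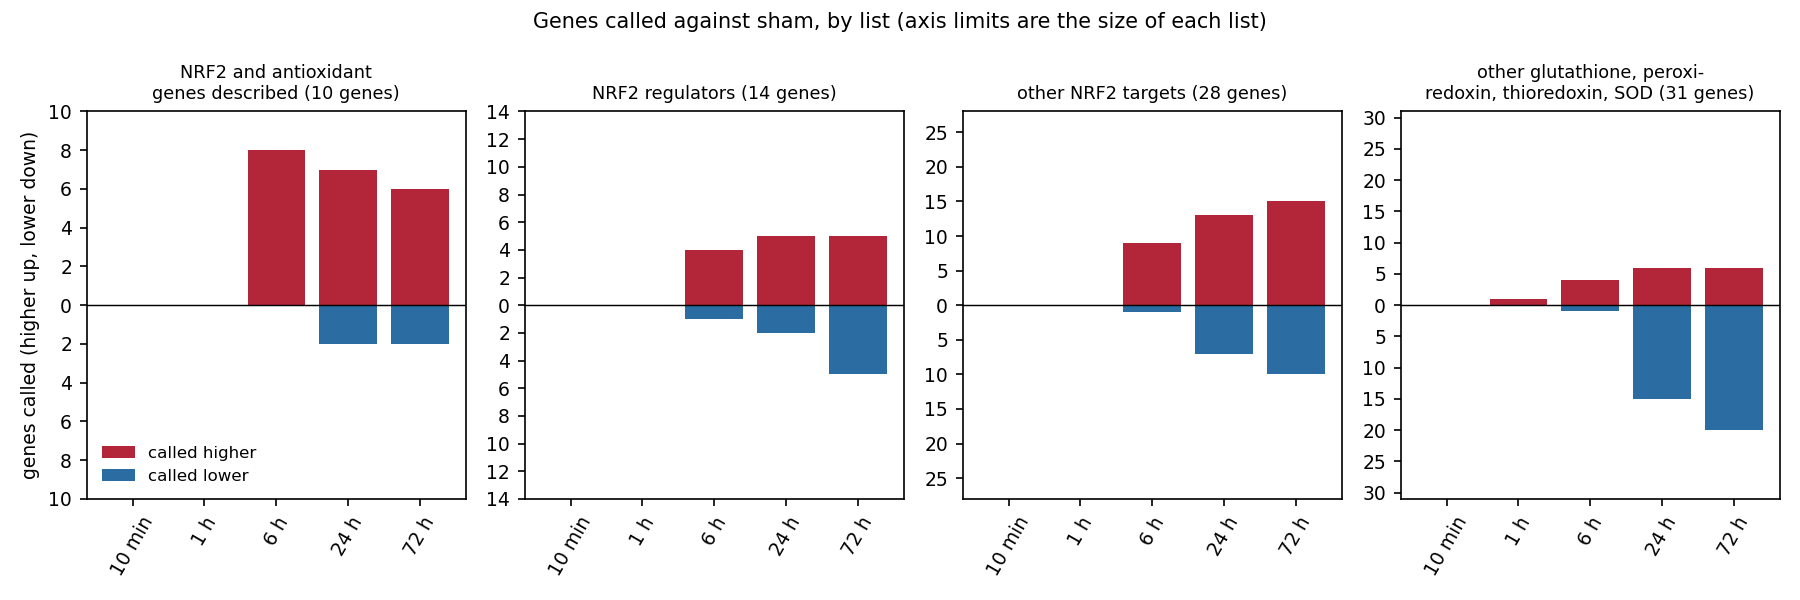
Number of genes called higher (upward bars) or lower (downward bars) than sham at each time (x axis) in the 10 genes described and in the lists of 14, 28 and 31 related genes, each y axis running to the size of its list. The first calls in quantity come at 6 h, mostly higher, when 16.3% of all genes were higher and 12.2% lower. The list of 31 has 20 lower and 6 higher at 72 h, beside 32.2% lower and 34.2% higher of all genes.

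Likeness to Nfe2l2 was searched among tested genes averaging 50 counts or more, with the 10 genes described here left out. The 5 whose log2 CPM followed it most closely over the 18 libraries were Btg3 (Pearson r = 0.953), Ell2 (0.940), Fgl2 (0.937), Dnttip2 (0.936) and Bcr (0.935). They were chosen for this likeness, so it is a description, and the libraries share their groups. Each was higher at 6 h than in sham and at 72 h on average: Btg3 went from 10.2 to 20.5 and 13.2 CPM, and Fgl2 from 40.5 to 379 and 90.5 CPM. No gene of the antioxidant lists was among them.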

How the data were processed

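RNA of 18 mice was measured by poly(A)-selected sequencing, with 1 library per mouse. The authors deposited read counts and FPKM by Ensembl gene; per the submitters' processing notes, cutadapt 1.18, HISAT2 2.1.0, featureCounts and the mm10 build were used, and their settings, strand included, are not given in the sources used here. Reads shared by overlapping genes or copies of a gene may therefore be split. The deposited FPKM values are the counts scaled to gene length and library total; at 6 h the FPKM of replicate 2 matched the counts of replicate 3 and the reverse, which leaves group means as they are. Of 30583 IDs, 30489 matched a symbol in GENCODE M21.

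A quasi-likelihood model (robust glmQLFit in edgeR 4.0.16, R 4.3.3) took all 18 libraries of deposited counts, with a mean for every group, after filterByExpr (14272 genes removed) and TMM scaling. Contrasts with sham and between neighbouring times were two-sided, and p-values were adjusted over 16311 genes. SE were derived from the F statistic. Totals of 18.2 to 25.1 M counts and a biological coefficient of variation of 0.149 set the precision. Alternatives used other scalings, filters, limma 3.58.1 on log2(FPKM + 1) and log2(FPKM + 0.1), DESeq2 1.42.0, a replicate block, the 6 libraries compared alone, and each library left out.

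The genes, related lists and markers were chosen with earlier results of these data known. Named besides the 10 genes were Keap1, Nqo1, Hmox1 and, per related list, the 2 largest increases and 2 largest decreases that were called, in genes averaging 50 counts or more, at 6 h and at 72 h; Txnip at 1 h was named after its values were seen.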

Additional observations from a re-analysis of the deposited data

How the results depend on the processing

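Of 25 calls of the 10 genes against sham, 19 held under all alternatives run, 6 were lost under at least 1 and 0 reversed. The 6 were Sod3 and Gpx1 at 6 h, Nfe2l2, Gclc and Cat at 24 h, and Gclm at 72 h. The number of the 10 called at 24 h against 6 h was 4, and 1 in a fit of those 6 libraries alone. Leaving out 1 library gave 7 of 10 at 6 h, 6 to 9 at 24 h and 7 to 8 at 72 h. Keap1 at 72 h changed sign, to 0.13 with library totals and to 0.12 and 0.13 with limma on log2(FPKM + 1) and log2(FPKM + 0.1), with no call. Calls over all genes at 10 min (12) were 26 with no filter, 58 with DESeq2, 2 and 4 with limma, 386 in the 6 libraries alone and 0 to 5 with 1 library left out. At 1 h (48) they were 95 with DESeq2, 208 in the 6 libraries alone and 31 without sham replicate 2. For 1 h against 10 min (50) they were 125, 262 and 6 to 42 with 1 library left out. Without 6 h replicate 1 they were 2937 at 6 h (4639) and 2507 for 6 h against 1 h (4003). For 24 h against 6 h (4541) they were 6880 with library totals and 1035 in the 6 libraries alone. The causes were not tested. Same-numbered replicates did not deviate together (median r = 0.0351, from -0.256 to 0.252 over 45 pairs), and a replicate block left 7 of 10 called at 6 h, losing only Sod3 there and from 1 h to 6 h. The alternatives for steps between times, all-gene counts, genes not called, related genes and the length of Sod2 were chosen after seeing the data. With 3 mice a group, changes as small as that of Sod3 at 6 h depended on each library.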

Other observations

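Glutathione reductase and thioredoxin reductase draw on NADPH, and some genes of pathways that supply it moved in different directions at 72 h. These genes belong to the lists above but were picked after their values were seen. The 4 pentose phosphate genes of the target list rose against sham: G6pdx, at 6.03 ± 0.283 CPM in sham, reached 35.9 ± 2.49 CPM (a change of 2.57 ± 0.18 on the log2 scale, edgeR adjusted p = 1.11e-09), Tkt by 2.11 ± 0.14 (adjusted p = 6.4e-10), Pgd by 1.85 ± 0.18 (adjusted p = 7.9e-08) and Taldo1 by 0.57 ± 0.08 (adjusted p = 7.78e-06). Me1, the cytosolic malic enzyme, fell from 99.8 ± 4.83 to 42.0 ± 3.36 CPM (-1.25 ± 0.11, adjusted p = 1.23e-08).

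Beside Sod2, other mitochondrial peroxide-handling genes were lower at 72 h, with log2 fold changes of -1.37 ± 0.11 for Prdx3 (adjusted p = 8.59e-09), -1.20 ± 0.10 for Txnrd2 (adjusted p = 1.24e-08) and -0.94 ± 0.12 for Txn2 (adjusted p = 1.3e-06). Sod1, the cytosolic dismutase, was lower as well, at 121 ± 8.10 against 245 ± 11.4 CPM (-1.03 ± 0.10, adjusted p = 7.91e-08). The directions of these 9 genes held with library totals in place of TMM. Cardiomyocyte markers were lower and macrophage markers higher at the same time, and their part in these changes was not tested.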
